A study of Mus musculus with 11 samples.

Results

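The endoplasmic reticulum (ER) folds and exports secreted proteins, and the 42 genes described here encode its stress sensors, chaperones, folding enzymes, degradation machinery and protein channel. They were chosen by gene symbol for their roles in the ER. Of the 42 genes, 28 were named in the table of H3K27ac, with 48 of its 31479 regions, and 3 were named in the table of H3K27me3, with 4 of its 20086 regions. In the table of the transcription factor ISL1, 40 of the 42 genes had a promoter window among 22332 windows. The symbols without a window row were Sec61b and Ppp1r15a.

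The assay was CUT&Tag, where a transposase tied to an antibody cuts out the DNA beside the bound protein or histone mark for sequencing. Pancreatic endocrine cells of mice were sorted for tdTomato, a red reporter (Ai14) that Cre recombinase switches on. Isl1CKO animals were Isl1loxP/loxP;Neurod1-cre, and the Control animals were Isl1loxP/+;Neurod1-cre littermates of both sexes on a C57BL/6 background. All animals thus carried the Neurod1-cre transgene and at least 1 floxed Isl1 allele, so the Control cells were heterozygous and not wild type. Cre is driven by Neurod1, which is active in endocrine cells of every hormone type, so each library mixed alpha, beta and other endocrine cells. H3K27ac, found at active promoters and enhancers, and H3K27me3, found at genes silenced by Polycomb, were measured in both genotypes at postnatal day 9 (P9). Each mark had 2 libraries per genotype, each from a pool of 3 to 4 pancreases and about 20000 cells. ISL1 was measured in Control cells only, at embryonic stage E14.5 from 2 libraries given as 1 pooled column, and at P9 from 1 library. In such bulk samples fewer cells of a type and less signal per cell cannot be told apart.

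The unfolded protein response is the set of pathways by which a cell answers misfolded protein in the ER. The membrane proteins IRE1 (gene Ern1), PERK (Eif2ak3) and ATF6 sense it. IRE1 splices the Xbp1 messenger RNA, PERK slows translation and favours that of ATF4, and ATF6 is cut to release a transcription factor. Their targets include chaperones, disulfide enzymes and the machinery that removes misfolded protein. Beta cells, which make insulin in large amounts, are known to depend on this response, and mutations of Eif2ak3 or Wfs1 cause diabetes in people. ISL1 is a LIM homeodomain factor needed for endocrine cells to mature.

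The transcription factors ATF6 and XBP1 are known to act with the factor NF-Y at the ER stress element, a DNA motif that reads CCAAT, any 9 bases, CCACG. The element was first described at genes such as Hspa5, Hsp90b1 and Calr, so its presence there is background and not a result. RefSeq promoter sequences of the mouse build GRCm38.p6 were found for 36 of the 42 genes, among 27025 gene symbols, each covering 250 bases before to 50 after the annotated start. The element was searched on both strands and stood in 9 of the 36 windows (25%), against 37 of all 27025 windows (0.137%). A second form, ATTGG, any base, CCACG, which shares the same outer letters, was in 2 of 36 (5.56%) against 0.0444% of all. The stretches below are shown because they carry these motifs upstream of the starts, at all of which but that of Hspa5 an H3K27ac region was measured. They are written 5′ to 3′ along the gene, and capitals mark the outer letters of the motif, read on either strand.
Calr, chr8:84847065-84847103, minus strand: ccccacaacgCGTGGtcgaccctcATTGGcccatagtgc
Canx, chr11:50325790-50325828, minus strand: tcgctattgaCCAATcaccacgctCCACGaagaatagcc
Creld2, chr15:88819510-88819548, plus strand: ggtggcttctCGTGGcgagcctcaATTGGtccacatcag
Dnajc3, chr14:118937817-118937855, plus strand: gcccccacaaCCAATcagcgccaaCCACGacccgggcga
Ero1b, chr13:12565672-12565710, plus strand: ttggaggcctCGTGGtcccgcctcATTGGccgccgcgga
Pdia6, chr12:17266481-17266519, plus strand: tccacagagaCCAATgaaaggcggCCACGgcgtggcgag
Syvn1, chr19:6046522-6046560, plus strand: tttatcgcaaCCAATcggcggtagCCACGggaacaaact
Herpud1 (second form), chr8:94386367-94386397, plus strand: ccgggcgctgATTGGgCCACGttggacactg
Hspa5, chr2:34771923-34772053, plus strand: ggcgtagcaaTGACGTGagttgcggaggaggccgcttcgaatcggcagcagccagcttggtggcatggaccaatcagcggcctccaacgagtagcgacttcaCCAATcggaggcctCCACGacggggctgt
Hsp90b1, chr10:86705523-86705666, minus strand: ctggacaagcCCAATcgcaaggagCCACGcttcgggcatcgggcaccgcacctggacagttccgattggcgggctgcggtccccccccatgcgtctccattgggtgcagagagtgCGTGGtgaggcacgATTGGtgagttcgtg

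Counted from the annotated start, the motif began at -44 in Syvn1 and at -212 in Hsp90b1, with the other 8 genes between them. Hsp90b1 held the element at 2 places, on opposite strands. The capitals TGACGTG in Hspa5 mark the unfolded protein response element, to which XBP1 and ATF6 are known to bind. It stood in 1 of 36 member windows (2.78%) and in 2.22% of all. The element TGATG, any base, AAT, known for ATF4 with C/EBP factors, was in 0 of 36 against 1.08% of all, and the ISL1 core CTAATG was in 1 of 36 (2.78%, Eif2ak3) against 8.49%. Dnajb11 held the second form just past its start. A match is a run of letters and not a measured binding site, and a window without a match says only that these letters are missing from it.

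The H3K27ac libraries held 681047 to 1815511 counts in regions and the H3K27me3 libraries 1202276 to 2276887. Levels are in CPM, counts in a region scaled to the library's total by TMM factors. Where no count fell in a region, a true level of up to 4.49 CPM in the shallowest H3K27ac library and 2.63 CPM in the shallowest H3K27me3 library cannot be told from 0, by counting error alone. Control replicate 2 of H3K27ac stood apart, with r = 0.389 to 0.435 to the other libraries over log2 CPM of regions, against 0.715 to 0.752 among the other 3. Of 16 endocrine marker genes, 13 had an H3K27ac region, with summed levels of 1290 and 1015 CPM in Control and 1277 and 1147 in Isl1CKO, and no region was listed for Gcg, Ins2 and Sst. Acinar markers had a region for 3 of 13 genes, summing to 300 and 229 CPM in Control and 235 and 231 in Isl1CKO, and no region was listed for Ptf1a, Cela1 and Prss2. Regions were listed for 6 of 8 ductal, 3 of 7 endothelial, 2 of 8 mesenchymal, 3 of 7 immune and 2 of 5 glial genes, and the endothelial sum was highest in Control replicate 2 (90.9 CPM against 34.4 to 47.9). At Isl1 itself the promoter region had 62.5 and 42.2 CPM in the Control libraries and 44.9 and 45.1 CPM in the Isl1CKO libraries, and a region in intron 3 had 19.1 and 21.6 against 7.49 and 2.78. The labels do not give which part of Isl1 is floxed, so these values are not a check of the deletion.

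H3K27ac was found at the starts of most of these genes. Within 1000 bp of the annotated start, 34 of the 40 genes with a known start had a region (85%), under whatever gene name the table gave it, against 9606 of 22155 genes overall (43.4%). At 11 of the 34 the region carried a neighbour's name, which is why Manf, Ddit3, Dnajb9, Dnajb11, Dnajc3, Creld2, Derl2 and Hsp90b1 appear in no H3K27ac row of their own. No region was listed at the starts of Atf3, Atf4, Derl1, Hspa5, Hyou1 and P4hb. The table held only regions with at least 50 counts over the 4 libraries, so a missing region is not a measured 0. H3K27me3 showed the reverse: 1 of 40 starts had a region (2.5%), against 13.9% of 22155.

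**Figure D1:**
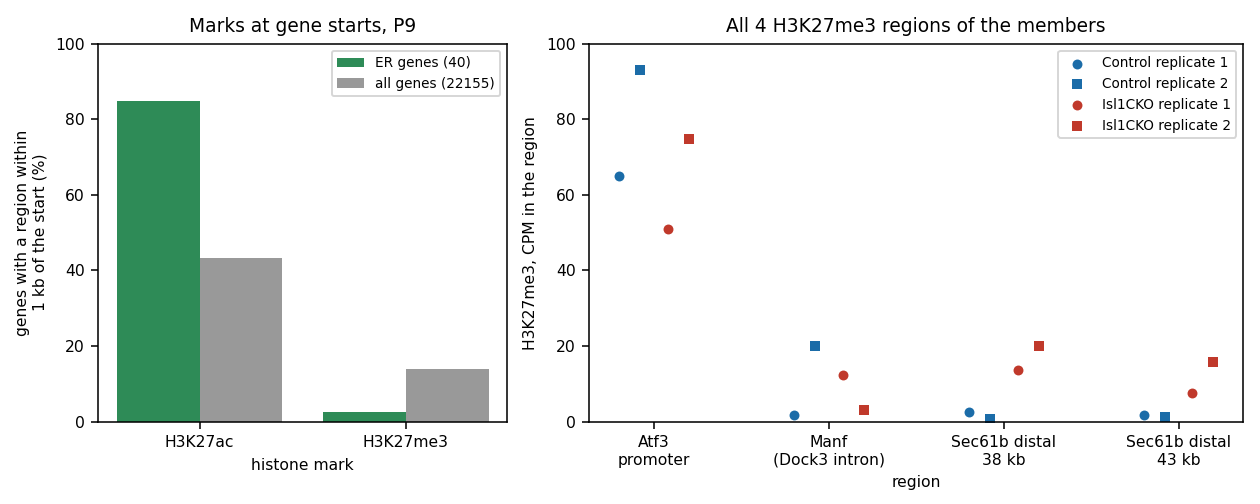
Left, the percentage of the 40 ER genes and of all 22155 genes with a known start that had a region of H3K27ac or H3K27me3 within 1000 bp at P9. Right, the CPM of each library in the 4 H3K27me3 regions of Atf3, Manf and Sec61b; both Isl1CKO libraries lie above both Control libraries at the regions of Sec61b only.

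Levels between genes are compared per length, as CPM per kb of the gene's leading region (the promoter region with most counts on average, or for a gene with none, any region with most counts). Of the 28 leading regions 26 were promoters, and in Control their median was 35.8 CPM per kb, against 27.7 over the leading promoter regions of 12378 genes. Of the 26, 19 lay above that overall median. Ero1a, which re-oxidises the disulfide enzymes, was highest at 60.3 and 79.5 CPM per kb in the 2 Control libraries. Pdia3, a disulfide isomerase that works with calnexin, followed at 91.8 and 44.6, and Herpud1, a scaffold of ER-associated degradation, at 70.5 and 63.2. These top 3 overlapped one another in Control, so their order is not set by these libraries, and their mean levels passed those of 98.6% to 99.0% of promoters. At the lower end, the leading region of Atf5 had 15.97 and 15.03 CPM per kb. Calr, the calcium-binding chaperone calreticulin, had 14.54 and 18.11, which overlap those of Atf5. The Atf5 region lies 2 to 3 kb upstream, and the region over its start, listed under Nup62, had a Control mean of 35.3 CPM per kb.

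Isl1CKO was then compared with Control at P9, which asks how chromatin differs when Isl1 is deleted in endocrine cells. No H3K27ac region of these genes passed the test. With edgeR's quasi-likelihood test, adjusted by Benjamini-Hochberg, 0 of the 48 regions were called, as were 0 of all 30036 tested regions (0%). At an unadjusted p below 0.05 there were 5 of the 48 member regions, against 5.83% of all, and the smallest adjusted p of a member was 0.848. These 5 were the promoters of Calr and Sdf2l1 and the regions named for Derl1. The Derl1 regions were listed only through their Control counts, so nothing is read from the number 5. DESeq2 called 29 regions over the genome (0.109%), none of them a member's, with a smallest member adjusted p of 0.238. The p-values measure the spread between these pools.

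Among the 28 leading regions, log2 fold changes of Isl1CKO over Control were above 0 in 17 and below 0 in 11, with a median of 0.13. Over the leading regions of all genes, 51.1% were above 0 and the median was 0.019. Both Isl1CKO libraries lay above both Control libraries in 9 of the 28 genes, against 19.2% of all genes, and below both in 5, against 18.3%. The 5 include Atf6 and Derl1, whose regions were listed only through their Control counts. Members were well covered: with genes ranked by mean count into 4 equal bins, 11 members fell in bin 3 and 12 in bin 4, the highest. There the medians over all genes were 0.075 and 0.15. Both Isl1CKO libraries lay above Control in 799 of 3975 genes of bin 3 and in 1034 of 3975 of bin 4. They lay below Control in 614 and 485, so the shares of 19.2% and 18.3% are not matched for coverage. Without Control replicate 2, the library that stood apart, the split was 14 and 14 with a median of -0.053. Both Isl1CKO libraries then lay above the remaining Control library in 11 genes and below it in 13, against 32.2% and 34.9% of all genes.

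**Figure D2:**
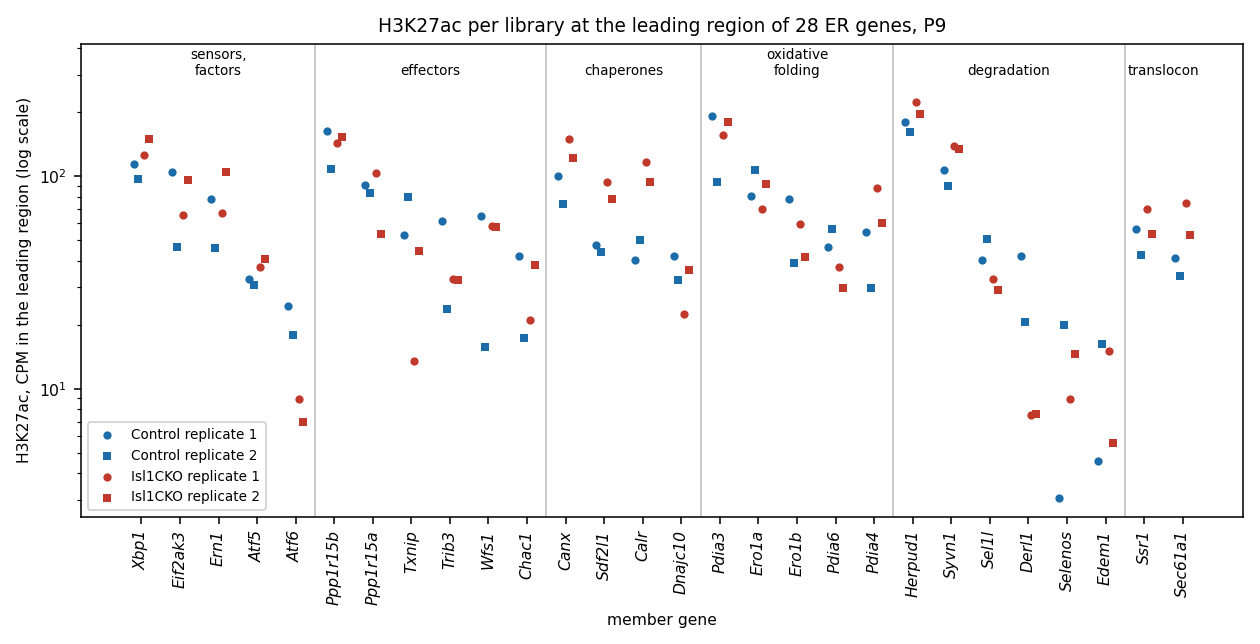
CPM of H3K27ac (log scale) in the leading region of 28 ER genes in each of the 4 P9 libraries, grouped by role; circles are replicate 1 and squares replicate 2. Blue Control and red Isl1CKO points separate without overlap in 9 genes with Isl1CKO above and in 5 with Isl1CKO below. The 5 include Atf6 and Derl1, whose regions were listed only through their Control counts.

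Of the sensors and transcription factors, 5 of 8 had a leading region, and 4 of these measured higher in Isl1CKO (median 0.30). Without Control replicate 2 there were 3 higher and 2 lower, with a median of 0.15. Xbp1 encodes the factor made active by IRE1 splicing. Its promoter (chr11:5470290-5472372, GRCm39, the build of all measured regions) had 113.6 and 96.9 CPM in Control and 125.8 and 149.98 in Isl1CKO. The groups did not overlap, with a log2 fold change of 0.39 (SE 0.32, edgeR adjusted p = 0.915). The Ern1 promoter had 78.6 and 46.0 CPM in Control and 67.4 and 104.2 in Isl1CKO. The groups overlapped there (log2 fold change 0.48, SE 0.42, and 0.11 to 0.92 with 1 library left out). At Eif2ak3 the promoter had 104.5 and 46.5 CPM in Control and 65.9 and 95.8 in Isl1CKO, and the Isl1CKO libraries lay between the Control libraries (0.12, SE 0.44).

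Atf6 was the sensor whose region measured lower in both Isl1CKO libraries. Its promoter (chr1:170694759-170695510) had 24.4 and 17.9 CPM in Control and 8.98 and 6.94 in Isl1CKO, from 32, 33, 6 and 10 counts. The log2 fold change was -1.41 (SE 0.89), and the edgeR adjusted p was 0.894. The value ranged from -1.63 to -1.18 when each library was left out in turn. Without its Control counts this region would not have reached the 50 counts needed to be listed. The log2 fold change is therefore not read as a change, though it counts among the members' values below 0. The factor ATF5, a relative of ATF4, had a region 2 to 3 kb upstream of its start with 32.8 and 30.9 CPM in Control and 37.4 and 41.0 in Isl1CKO. At the start of Atf5 the region, which bears the name Nup62, had groups that overlapped (log2 fold change -0.25, SE 0.42). For Ddit3, the gene of the cell death factor CHOP, the start lay in a region of 212.0 and 170.5 CPM in Control and 266.5 and 199.98 in Isl1CKO. That region, listed under Gm20492, was 6205 bp wide, and its groups overlapped (0.28, SE 0.28). Atf4 and Atf3 had no H3K27ac region listed.

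The 6 effector and feedback genes all had a leading region, 3 measured higher and 3 lower in Isl1CKO, with a median of -0.071. Without Control replicate 2 all 6 measured lower, with a median of -0.36. Txnip encodes the inhibitor of thioredoxin that glucose is known to induce in beta cells. Its promoter (chr3:96464857-96466476) had 52.6 and 79.6 CPM in Control and 13.5 and 44.4 in Isl1CKO. Each Isl1CKO library was lower than each Control library, and Isl1CKO replicate 1 was the lowest by far. The log2 fold change was -1.13 (SE 0.56, edgeR adjusted p = 0.865), and it ranged from -2.29 to -0.58 when each library was left out. The other 4 Txnip regions had groups that overlapped, with log2 fold changes of -0.31 to 0.084.

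Wfs1 encodes wolframin, an ER membrane protein lost in Wolfram syndrome. Its promoter had 64.8 and 15.7 CPM in Control and 58.4 and 57.6 in Isl1CKO, so the low library was Control replicate 2 (log2 fold change 0.54, SE 0.59). Without that library the value was -0.16. Ppp1r15b encodes the constantly made subunit of the phosphatase that restores translation after stress. Its promoter had 162.5 and 108.2 CPM in Control and 143.7 and 152.8 in Isl1CKO (0.14, SE 0.32). Its stress-induced relative Ppp1r15a, the pseudokinase gene Trib3 and Chac1, whose enzyme degrades glutathione, also overlapped, at -0.17, -0.37 and 0.034.

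Of the 12 chaperone genes 4 had a leading region, 3 of them higher in both Isl1CKO libraries (median log2 fold change 0.77), and the smallest p of any member was at Calr. That median leaves out the chaperone starts in regions under other names, where values ran from -0.80 at Dnajb9 to 0.79 at Manf. The Calr promoter (chr8:85572271-85575050) had 40.4 and 50.3 CPM in Control and 116.8 and 94.4 in Isl1CKO. Every Isl1CKO value lay well above the higher Control value. The log2 fold change was 1.21 (SE 0.40), with an unadjusted edgeR p of 0.00768, an adjusted p of 0.848 and a DESeq2 adjusted p of 0.238. It was 1.37 without Control replicate 2. Canx encodes calnexin, the membrane-bound partner of calreticulin in the folding of glycoproteins. Its promoter (chr11:50215639-50217108) had 99.9 and 74.1 CPM in Control and 149.7 and 121.5 in Isl1CKO. The groups did not overlap (log2 fold change 0.64, SE 0.34, edgeR adjusted p = 0.868). Sdf2l1, a partner of the chaperone BiP and its DnaJ co-chaperones, had 47.3 and 43.8 CPM in Control and 94.3 and 77.8 in Isl1CKO (chr16:16949255-16950567). The groups were again separate (0.91, SE 0.41, edgeR adjusted p = 0.851).

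Of the other chaperones, Dnajc10, a disulfide reductase with a J domain, overlapped between genotypes (-0.32, SE 0.58). The starts of 6 chaperone genes lay in regions under other names. Manf, a secreted factor that binds BiP and protects beta cells, had 81.6 and 47.1 CPM in Control and 113.8 and 108.3 in Isl1CKO. Isl1CKO was higher in each library (0.79, SE 0.39, edgeR adjusted p = 0.864), and the log2 fold change was 0.44 without Control replicate 2. Dnajb9, a co-chaperone that restrains IRE1, had 106.8 and 88.8 CPM in Control and 43.4 and 67.4 in Isl1CKO. Isl1CKO was lower in each library (-0.80, SE 0.40, edgeR adjusted p = 0.865). Creld2 had a small separation upwards (0.18, SE 0.37), while Dnajc3, Dnajb11 and Hsp90b1 overlapped at 0.24, 0.12 and -0.17. Each of these regions also covers the start of the neighbour whose name it bears, or lies next to it, so its signal cannot be assigned to the member alone. Hspa5, the gene of BiP, the main ER chaperone, had no H3K27ac region listed under its name or at its start, and neither had Hyou1.

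Among the folding enzymes the 5 leading regions had 2 values above 0 and 3 below, with a median of -0.20. The promoter of Pdia4 (chr6:47789786-47790923) had 54.9 and 29.8 CPM in Control and 88.3 and 60.4 in Isl1CKO. The groups did not overlap (log2 fold change 0.81, SE 0.47, edgeR adjusted p = 0.889), and the value ranged from 0.42 to 1.30 with 1 library left out. Its relative Pdia6, which has been tied to the control of IRE1, had 46.5 and 56.3 CPM in Control and 37.4 and 29.9 in Isl1CKO. Here the Isl1CKO libraries were the lower ones (-0.62, SE 0.51, edgeR adjusted p = 0.915). Pdia3 had 193.0 and 93.6 CPM in Control and 155.7 and 179.8 in Isl1CKO, which overlap (0.24, SE 0.34). Ero1a had 80.8 and 106.6 CPM in Control and 70.4 and 92.4 in Isl1CKO (-0.20, SE 0.37). It overlapped between genotypes, as did Ero1b, the form enriched in beta cells (-0.22, SE 0.49).

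In ER-associated degradation 3 leading regions measured higher and 3 lower (median -0.024). Leaving out Control replicate 2 gave 4 and 2, with a median of 0.29. Syvn1, the ubiquitin ligase HRD1 that marks misfolded protein, had 106.8 and 90.4 CPM in Control and 139.2 and 134.7 in Isl1CKO. There was no overlap, with Isl1CKO higher (0.47, SE 0.32). Herpud1, which binds HRD1, had 179.2 and 160.7 CPM in Control and 223.1 and 196.5 in Isl1CKO, again without overlap (0.30, SE 0.27). Sel1l, the adaptor that keeps HRD1 stable, went the other way, with 40.4 and 50.9 CPM in Control and 32.9 and 29.2 in Isl1CKO (-0.56, SE 0.53). The named regions of Edem1 and Selenos overlapped (-0.079 and 0.031), and so did the start regions of Selenos and Derl2 (0.45 and 0.071). Edem1's start region, listed under Gm35417, had both Isl1CKO libraries slightly below Control (-0.22, SE 0.43).

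Derl1, a channel protein of the same machinery, had the lowest log2 fold change of the 28, but not at its promoter. Its leading region (chr15:57688354-57689591) lies in intron 3 of the neighbour Zhx2, 66253 bp from the Derl1 start. It had 41.9 and 20.6 CPM in Control and 7.49 and 7.64 in Isl1CKO (-2.03, SE 0.79, edgeR adjusted p = 0.851). A second region in that intron (chr15:57687670-57688270) had 31 and 32 counts in the Control libraries but 0 and 3 in the Isl1CKO libraries. Another, in intron 1 of Derl1 (chr15:57749074-57749599), had 12 and 52 counts in the Control libraries but 3 and 1 in the Isl1CKO libraries. In all 3 regions both Isl1CKO libraries were below both Control libraries. All 3 reached the 50 counts of the table only through the Control libraries, so a region as low in Control as in Isl1CKO would not have been listed. The log2 fold change of the leading region is therefore not read as a change, though it counts among the 11 members' values below 0. No ratio is given for the other regions, and the assignment to Derl1 rests on distance.

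The translocon genes with a region were Sec61a1, the pore of the protein channel, and Ssr1, a subunit of the translocon-associated complex. Sec61a1 had 41.2 and 34.1 CPM in Control and 74.9 and 52.8 in Isl1CKO. The groups did not overlap (0.75, SE 0.48, edgeR adjusted p = 0.897). Ssr1 had 56.4 and 42.8 CPM in Control and 70.4 and 53.5 in Isl1CKO, with overlap (0.31, SE 0.45).

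**Figure D3:**
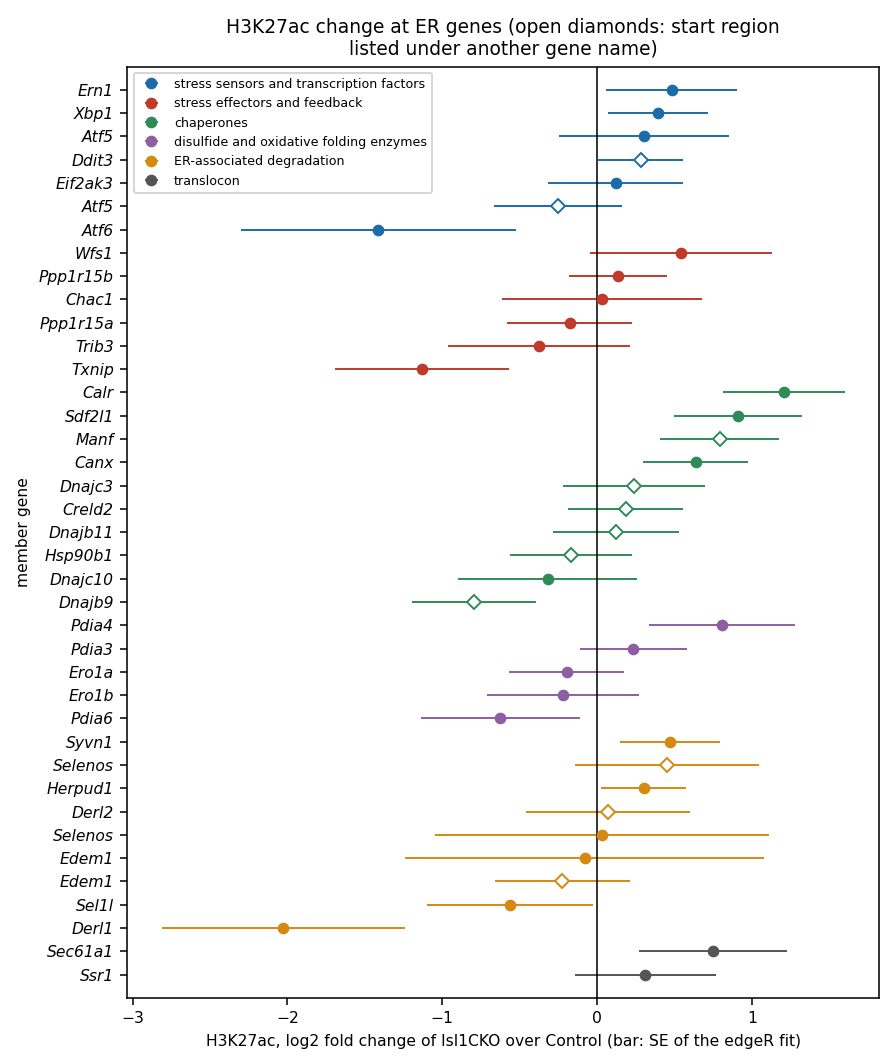
Log2 fold change of H3K27ac in Isl1CKO over Control for each ER gene by role, with the standard error of the edgeR fit as bars. Filled circles are leading regions, open diamonds are regions at the gene start that carry another gene's name. Calr at 1.21 and Derl1 at -2.03 are the extremes, and the regions of Derl1 and Atf6 were listed only through their Control counts.

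Taking the region at the start in place of the named one, whichever name it bore, gave 22 starts above 0 and 12 below, with a median of 0.16. Both Isl1CKO libraries were above Control in 10 of the 34 and below in 6, beside 19.2% and 18.3% of the leading regions of all genes, which are not matched for coverage. The 6 include Atf6, whose region was listed only through its Control counts. Without Control replicate 2 the split was 18 and 16 with a median of 0.035. The 10 genes with an ER stress element of either form and a region at the start had 7 values above 0 and a median of 0.21, and the other 24 had 15 above 0 and a median of 0.13. With Control replicate 2 left out the 10 again had 7 above 0, with a median of 0.27, and the other 24 had 11 above 0, with a median of -0.069. The other 24 include Manf, Ppp1r15b, Sec61a1 and Atf6, for which no promoter sequence was found, so they were not searched for the element. This split carries no test. Of the 10, Calr, Canx, Creld2, Herpud1 and Syvn1 had both Isl1CKO libraries above Control and Pdia6 had both below, beside the same 19.2% and 18.3% of all genes.

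The wider pathway, 84 further genes of the ER machinery or of stress signalling and its targets, had 66 with a tested H3K27ac region. Of these 37 were above 0 and 29 below, with a median of 0.099, and 0 of 66 were called by edgeR, with 1 at an unadjusted p below 0.05. Both Isl1CKO libraries were above Control in 16 and below in 5, against 19.2% and 18.3% of all genes, which are not matched for coverage. Degradation genes had 10 above and 6 below 0 (median 0.25) and genes of stress signalling and its targets 11 and 6 (0.13). Further folding enzymes had 7 and 7 (-0.040), and genes of the translocon, signal peptidase and glycosylation had 9 and 10 (-0.030). Of the acinar markers, 3 of 13 had a leading region, with log2 fold changes from -1.98 at Cpa1, where both Isl1CKO libraries were below Control, to 0.41, and their part in the member values was not tested.

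In the authors' deposited table the direction of the calls was more one-sided. At an adjusted p below 0.05 it lists 12 of the members' 28 leading regions as higher in Isl1CKO and 1, that of Derl1, as lower. The same table lists 31.3% of all genes' leading regions as higher and 7.58% as lower, shares that are not matched for coverage. Most members fell in bins 3 and 4 of mean count. Of 3975 genes in each of these bins, the table lists 1389 and 1888 as higher and 63 and 8 as lower. Its log2 fold change for Calr was 1.89. Library sizes that fit the authors' fold changes put the median of all regions at 0.51 rather than at -0.028, and with them the member median was 0.66 with 23 genes above 0 and 5 below. Under that scaling all regions moved up along with the members.

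H3K27me3 covered 1 member promoter. Atf3, a stress-induced repressor gene, had a region over its start (chr1:190947114-190950934) with 74 and 159 counts in the Control libraries and 120 and 177 in those of Isl1CKO. In CPM these were 64.9 and 93.0 in Control and 51.0 and 74.9 in Isl1CKO, which overlap (log2 fold change -0.33, SE 0.42, edgeR adjusted p = 1.00). Its Control level was 17.0 and 24.3 CPM per kb, near the middle of the 4869 leading promoter regions of this mark (percentile 55.3). The authors' deposited table gives this region a log2 fold change of -0.84 with an adjusted p of 0.0266, in a table that lists 36.5% of leading regions as lower.

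The other regions named for members were far from their starts. Sec61b, the small subunit of the channel, had 2 in the intergenic DNA 37619 and 42566 bp away. The first (chr4:47512277-47513277) had 3 and 1 counts in the Control libraries but 32 and 47 in the Isl1CKO libraries. The second (chr4:47517224-47517987) had 2 and 2 counts in the Control libraries but 18 and 37 in the Isl1CKO libraries. Both Isl1CKO libraries were above Control at both regions, a pattern found in 18.7% of all tested regions of the mark. They reached the 50 counts of the table only through the Isl1CKO libraries, so no ratio is given and nothing is read from the direction. The region named for Manf lies in intron 25 of Dock3 and had 2 and 34 counts for Control against 29 and 7 for Isl1CKO, so replicates differed more than genotypes. For this mark edgeR called 0 of the 4 member regions and 0 of 19434 regions (0%), with 1 of 4 and 4.33% at an unadjusted p below 0.05. That 1 was the first Sec61b region, listed only through its Isl1CKO counts. DESeq2 called 130 (0.673%), none of a member, whose smallest adjusted p was 0.221. Of the further pathway genes, 5 had a region, 3 above and 2 below 0, 0 of 5 called by edgeR and 1 of 5 at an unadjusted p below 0.05. Mesenchymal marker genes had H3K27me3 regions at 4 of 8, summing to 2569 and 2536 CPM in the Control libraries and to 1855 and 1942 in the Isl1CKO libraries, a difference whose part in the member values was not tested. Endocrine sums overlapped between genotypes (205 and 320 CPM in Control, 210 and 288 in Isl1CKO), as did acinar, endothelial and immune sums. Ductal sums were lower in Isl1CKO (66.7 and 59.1 against 57.4 and 49.1 CPM), and glial sums were higher (234 and 191 against 244 and 255 CPM).

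ISL1 values are whole numbers per promoter window. Their unit is not given in the sources used here, the depth behind them is unknown, and with 1 column per stage there is no replicate and no test. Windows were 6000 bp wide for 87.7% of genes. At E14.5, 23 of the 40 member windows had a value of at least 1 (57.5%), against 37.7% of all windows, 17 had at least 2 (42.5% against 18.3%) and 3 had at least 5 (7.5% against 2.06%). At P9 the count was 3 of 40 (7.5%), against 8.86%. The sum over all windows was 16668 at E14.5 and 2255 at P9, so the drop between stages in the members runs beside one in all genes.

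The share at E14.5 ran with H3K27ac at P9. Of member windows whose start had an H3K27ac region, 22 of 34 had an ISL1 value of at least 1 (64.7%), against 63.7% of 9605 such genes. Without such a region it was 1 of 6, against 18.3% of 12551 genes. At this threshold the members were close to the other genes of each class. At a value of at least 2, the share among starts with a region was 16 of 34 members (47.1%) against 34.4% of genes, and at a value of at least 5 it was 2 of 34 (5.88%) against 3.96%. No test was made of these shares.

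**Figure D4:**
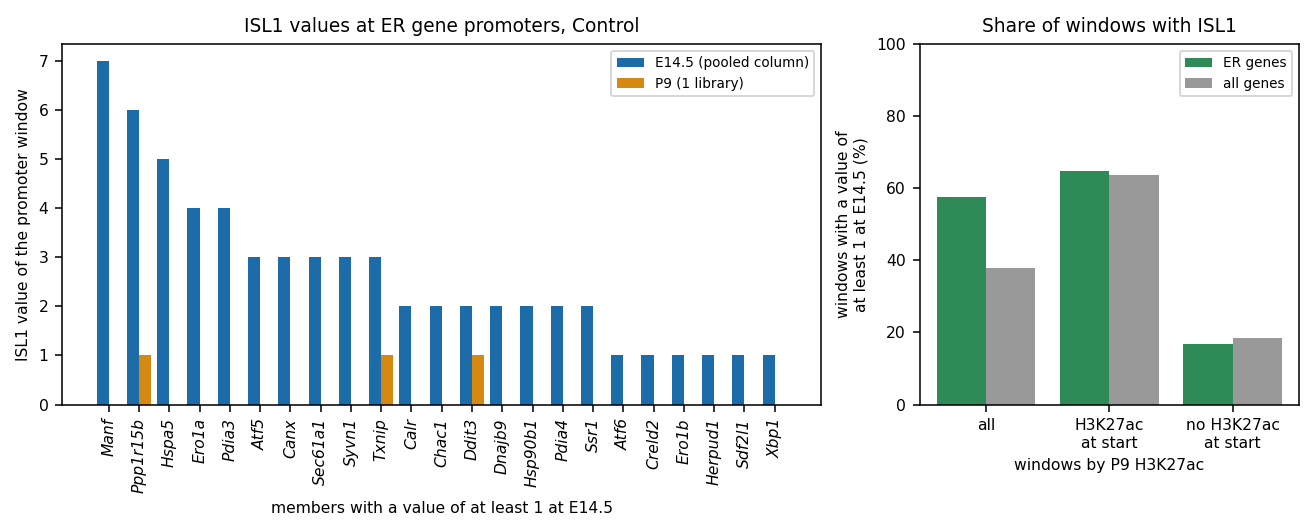
Left, ISL1 values of the promoter windows of the 23 ER genes with a value of at least 1 at E14.5 (blue, pooled column), with the P9 value beside it (orange, 1 library). Right, the percentage of windows with a value of at least 1 at E14.5 for ER genes and all genes, over all windows and split by an H3K27ac region at the start; the bars are close within each of the split classes.

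Manf had the highest value of the members, 7 at E14.5 and 0 at P9. A value this high or higher was found in 0.502% of windows, and the Manf window was also wide, at 10551 bp. Ppp1r15b had 6 at E14.5 and 1 at P9 in a window of 6639 bp. Hspa5 had 5 and 0, the value of at least 5 being shared by 2.06% of windows, and it was the 1 gene of the 23 with no H3K27ac region at its start. Ero1a and Pdia3 both had 4 at E14.5 and 0 at P9, while Herpud1, which shared the highest H3K27ac levels per kb with them in Control, had 1 and 0. Besides Ppp1r15b, the P9 column held a value of 1 for Txnip, which had 3 at E14.5, and for Ddit3, which had 2. Values of 0 at both stages were found for the sensors Ern1 and Eif2ak3 and for Atf3 and Atf4, while Xbp1 and Atf6 had 1 at E14.5.

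By role, a value of at least 1 at E14.5 was found in 8 of 12 chaperones, 4 of 6 folding enzymes, 3 of 5 effectors, 4 of 8 sensors and factors, 2 of 7 degradation genes and 2 of 2 translocon genes. The genes with an ISL1 value at E14.5 and a leading H3K27ac region numbered 17, and 13 of them measured higher in Isl1CKO at P9 (median log2 fold change 0.30). Of the 10 with a value of 0, 4 measured higher (median -0.20). Over all genes the medians were 0.097 for 5624 genes with a value and -0.022 for 4062 without. Without Control replicate 2 the member medians were 0.22 and -0.37, and those of all genes 0.014 and -0.012. This split was chosen with the values in view, it carries no test, and nothing particular to the ER genes is read from it. Of the genes with the 5 highest values, Manf had both Isl1CKO libraries above Control at its start, Ppp1r15b, Ero1a and Pdia3 overlapped, and Hspa5 had no region listed.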

How the data were processed

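CUT&Tag libraries of sorted mouse endocrine cells were grouped by the genotype and antibody of their labels. Per the submitters' processing notes, edgeR 4.0.16, Bowtie2 2.3.5.1, ChIPseeker 1.38.0, MACS2 2.2.6 and Picard 2.27.4 were used with GRCm39. The authors deposited raw counts per region and library for each histone mark, with their log2 fold change and log2 mean abundance, a likelihood ratio score and p-values, each raw and adjusted. The deposited ISL1 table gives a score per promoter window whose unit its header does not state. Chromosome labels of the histone tables followed alphabetical order: 7.47% and 9.23% matched the ISL1 table as written, and 100% did after relabelling. Repeated regions (108 and 90) were counted once, and 0 columns of per-sample values were unused.

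Counts were tested with edgeR 4.0.16 in R 4.3.3 (filterByExpr by genotype, TMM factors, quasi-likelihood F test, p adjusted within each mark by Benjamini-Hochberg, threshold 0.05), 2 Control against 2 Isl1CKO libraries. All member regions passed the filter. Levels are TMM-scaled CPM over counts in regions. DESeq2 1.42.0, RLE size factors, no filter, loess offsets, library sizes fitted to the authors' fold changes, a replicate block, counts summed per gene and each library left out were alternatives. The procedure was tested on simulated data. Motifs were counted on both strands of RefSeq promoters (GRCm38.p6). Because that build differs, no motif coordinate was joined to a measured region. No entry was found for Hyou1, Ppp1r15b, Manf, Sec61a1, Atf6 and Derl1.

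The members, roles and lists (endocrine, acinar, ductal, endothelial, mesenchymal, immune and glial markers, and 84 further pathway genes) were chosen with earlier results of these data known. Values per library were given for the sensors, Hspa5 and Txnip, for the 4 leading regions per direction with the smallest p and no overlap between genotypes, for members with an H3K27me3 promoter and for the 5 highest ISL1 values per stage. Other members given per library were chosen after their values were seen. Regions at gene starts under other names, and counts without Control replicate 2, were added after the data were seen.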

Additional observations from a re-analysis of the deposited data

How the results depend on the processing

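Member regions called stayed at 0 for both marks under every alternative run, with a smallest adjusted p of 0.0503 for H3K27ac, without Control replicate 1. H3K27ac regions called over the genome were 29 with DESeq2 (21 higher) and 0 to 1351 with 1 library left out: 1351 without Control replicate 1 (949 higher) and 15 without Control replicate 2. H3K27me3 regions called were 130 with DESeq2 (2 higher) and 460 with library sizes fitted to the authors' table (0 higher). The H3K27ac member median was 0.66 with those sizes and -0.053 to 0.46 with 1 library left out, the lower end without Control replicate 2 and the upper without the other. The H3K27me3 median of 3 genes was -0.56 to 2.08 with 1 library left out, the upper end without Control replicate 2. ISL1 windows of members at a value of at least 5 numbered 3 at E14.5, and 0 at P9 for at least 2 and at least 5.

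Of 31 member log2 fold changes, 13 changed sign under at least 1 setting, 28 times in all, and the cause was not tested. With loess offsets Edem1 was 0.50, Eif2ak3 -0.0036 and Ppp1r15b -0.049. With sizes fitted to the authors' table Dnajc10 was 0.22, Edem1 0.47, Ero1a 0.35, Ero1b 0.32, Ppp1r15a 0.37 and Trib3 0.16. With 1 library left out, H3K27ac ran from -0.49 to 0.80 for Chac1, -0.91 to 1.09 for Edem1, -0.35 to 0.81 for Eif2ak3, -0.42 to 0.023 for Ero1a, -0.65 to 0.36 for Ero1b and -0.20 to 0.85 for Pdia3. It ran from -0.70 to 0.24 for Ppp1r15a, -0.13 to 0.46 for Ppp1r15b, -0.73 to 1.94 for Selenos, -0.91 to 0.46 for Trib3 and -0.16 to 1.88 for Wfs1. H3K27me3 at Manf ran from -1.88 to 2.08.

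The replicate numbers of the labels were tried as a replicate block. Deviations of same-numbered libraries correlated at 0.049 for H3K27ac and -0.014 for H3K27me3. From 2 libraries per genotype these values cannot show whether same-numbered libraries shared a litter or day, and no label says so. With the block 0 regions of either mark were called, the member medians were 0.26 and -0.17, Edem1 was 0.012, and no other call changed. With 2 libraries per genotype and 681047 to 2276887 counts, a region that was not called cannot be taken as unchanged. This holds for thinly covered regions such as Edem1 and Selenos. It also holds for the better covered Calr promoter, where a log2 fold change of 1.21 had an edgeR adjusted p of 0.848.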

Other observations

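Members also had H3K27ac regions other than the leading one, several of them inside genes. Ern1 had 3 in its intron 2. At the region 43773 bp from the start (chr11:106334276-106334905) both Isl1CKO libraries were above Control, with 6.86 and 15.2 CPM in Control and 31.4 and 18.7 in Isl1CKO (log2 fold change 1.15, SE 0.80, edgeR adjusted p = 0.901). At the neighbour 47021 bp from the start both were below, with 19.8 and 32.5 CPM against 19.5 and 15.3 (-0.61, SE 0.70). Counts were 9 and 28 in Control and 21 and 27 in Isl1CKO at the former, and 26 and 60 against 13 and 22 at the latter. Without their Control counts neither would have reached the 50 counts needed to be listed, so neither value is read as a change. The difference between these regions was not tested.

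Wfs1 had a region in its intron 2 with 13.0 and 12.4 CPM in Control and 12.0 and 3.47 in Isl1CKO (-0.78, SE 1.16), beside a region in exon 3 whose groups overlapped (0.63, SE 0.84). A region assigned to Ssr1 by distance lies in intron 6 of Rreb1, 85000 bp away, and had 22.1 and 16.2 CPM in Control and 41.9 and 25.7 in Isl1CKO (0.80, SE 0.65). Pdia4 had a region 1 to 2 kb from its start at 17.5 and 36.8 CPM in Control and 19.5 and 10.4 in Isl1CKO (-0.90, SE 0.74), where the promoter itself measured higher in Isl1CKO. Canx had a flanking region with 9.15 and 26.0 CPM in Control and 5.99 and 13.9 in Isl1CKO (-0.78, SE 0.94), beside a promoter at 0.64. The groups overlapped at the flanking regions of both Pdia4 and Canx. Counts at the Pdia4 flank were 23 and 68 in Control and 13 and 15 in Isl1CKO. At the Canx flank they were 12 and 48 against 4 and 20, and in Wfs1 intron 2 they were 17 and 23 against 8 and 5. Without their Control counts these regions would not have reached the 50 counts needed to be listed. Their values below 0 are therefore not read as changes. Over all 48 member regions 24 were above 0 and 24 below, and edgeR called 0 of 48. At an unadjusted p below 0.05 there were 5, with the Derl1 regions listed only through their Control counts among them.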
